A study of Mus musculus with 13 samples.

Results

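Resident peritoneal macrophage genes are described here in CD31-sorted cells of mouse-grown ovarian tumors, as the 8 genes Gata6, Prg4, Alox15, Timd4, Cxcl13, Icam2, Selp and Bst1 among 18193 genes with a probe set. The genes were chosen by symbol for their link to large peritoneal macrophages, and some were picked for high values on the resistant arrays. Each is represented by the probe set of highest mean over the 13 arrays, and all 8 passed the filter on low values together with 15370 genes in all. The tumors came from SKOV3ip1, a human ovarian cancer line implanted in the peritoneal cavity of female athymic nude mice, which lack mature T cells, and the arrays carry mouse probe sets. Cells were sorted by FACS on CD31, an adhesion protein of endothelium that some leukocytes and platelets also carry. The control group (n = 5) received control IgG per the methods of the study. The sensitive (n = 4) and resistant (n = 4) groups received B20, an antibody against VEGF-A, and were told apart by the response of the tumors. Per the study, tumors were taken at various time points. Response therefore cannot be told apart from the length of treatment or the age of the tumor. All groups share the tumor line, the host and the sort. No label names the animal behind an array, and each p-value therefore measures only the spread between these samples.

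Large peritoneal macrophages are long-lived cells that float in the fluid of the cavity, seeded before birth and renewed on site, and they differ from the small macrophages that monocytes replace. The transcription factor Gata6 controls much of their program and is induced by retinoic acid made by the mesothelium and stroma of the cavity. Among the genes tied to that program, Prg4 encodes lubricin, Alox15 a lipoxygenase, Timd4 a receptor for the phosphatidylserine of dying cells, Bst1 an ectoenzyme known as CD157, Icam2 the adhesion molecule CD102, Selp P-selectin and Cxcl13 a chemokine for B cells. Several of them are also made elsewhere. Mesothelial cells express Gata6, and endothelial cells express Icam2 and Selp.

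Promoter windows of 250 bases before to 50 bases after the start site were on hand from RefSeq (GRCm38.p6) for 3 of the 8 genes, Timd4, Selp and Cxcl13. Those of Timd4 and Selp are shown because the 2 genes fell into different patterns below, and because Gata6 binds GATA words. The word AGATAA, its variants AGATAG and TGATAA, and the further variant TGATAG were searched on both strands, and their occurrences are in capitals. The Timd4 window is chr11:46810549-46810848 and the Selp window chr1:164115014-164115313, both on the plus strand.
Timd4: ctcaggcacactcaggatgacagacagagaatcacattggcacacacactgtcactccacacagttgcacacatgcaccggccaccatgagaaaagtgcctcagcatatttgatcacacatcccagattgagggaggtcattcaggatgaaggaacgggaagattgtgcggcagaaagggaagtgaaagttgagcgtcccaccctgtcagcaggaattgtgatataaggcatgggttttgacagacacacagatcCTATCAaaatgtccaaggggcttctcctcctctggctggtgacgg
Selp: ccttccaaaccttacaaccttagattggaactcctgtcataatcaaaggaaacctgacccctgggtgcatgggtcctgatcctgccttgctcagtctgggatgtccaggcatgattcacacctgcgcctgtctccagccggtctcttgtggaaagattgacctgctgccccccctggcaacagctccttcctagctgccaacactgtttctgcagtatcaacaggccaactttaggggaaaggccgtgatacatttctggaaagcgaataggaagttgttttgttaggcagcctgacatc
The Timd4 window held 1 such word, TGATAG on the minus strand, 5 bases after the start site, and the windows of Selp and Cxcl13 held 0. Over all 32851 windows of this length, 9778 (29.8%) held at least 1, so a match of this kind is common and is given as a description.

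Values are log2 intensities after quantile normalization, with a floor of 2.01, and were compared between groups for each probe set alone. The number of tested genes above the floor ran from 14302 to 14672 over the arrays. Several arrays stood apart from their group in markers of other cells. The median of 17 core macrophage genes was low on sensitive arrays 1, 2 and 3, at 4.51, 5.15 and 5.07. It was 9.84 on the fourth sensitive array and ran from 7.99 to 10.12 over the arrays of the other groups. Mesothelial genes were high on sensitive arrays 1 and 2, with medians of 7.72 and 7.88, and on resistant arrays 2 and 3, with 6.84 and 6.25. Endothelial genes had medians of 7.07 and 7.38 on control arrays 4 and 5 and of 2.53 to 3.99 on the other 11 arrays, where the endothelial cadherin Cdh5 lay between 2.11 and 4.28 and the sorting marker Pecam1 between 2.32 and 3.41. B cell genes had a median of 6.72 on sensitive array 3 and of 2.80 to 4.22 elsewhere. The excess of 3 prime over 5 prime signal for Actb and Gapdh, which grows as RNA degrades, was 5.75 on sensitive array 4 and at most 4.11 elsewhere. The trimmed mean of the deposited intensities was lowest on sensitive arrays 1 and 2, at 19.36 and 19.38. It ran from 23.77 to 33.47 elsewhere.

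Across the groups, 7 of the 8 genes were highest on average on resistant arrays, and Timd4 was slightly higher on control arrays. Lowest were the sensitive arrays for every gene except Gata6. The median difference between resistant and sensitive arrays was 2.59 on the log2 scale, with 8 of 8 genes positive, where the median over all tested genes was -0.07 and 42.1% were positive. Between resistant and control arrays it was 0.68, with 7 of 8 positive, against 0.03 and 54.3% over all tested genes. Because the genes were picked partly on the resistant arrays, this difference and that between resistant and control arrays are described without a test. Resistant values lay above all sensitive values for 5 genes, Prg4, Alox15, Timd4, Selp and Bst1, and 0.976% of all tested genes showed that separation. In these mixed samples, fewer cells of a type and less RNA per cell cannot be told apart.

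**Figure D1:**
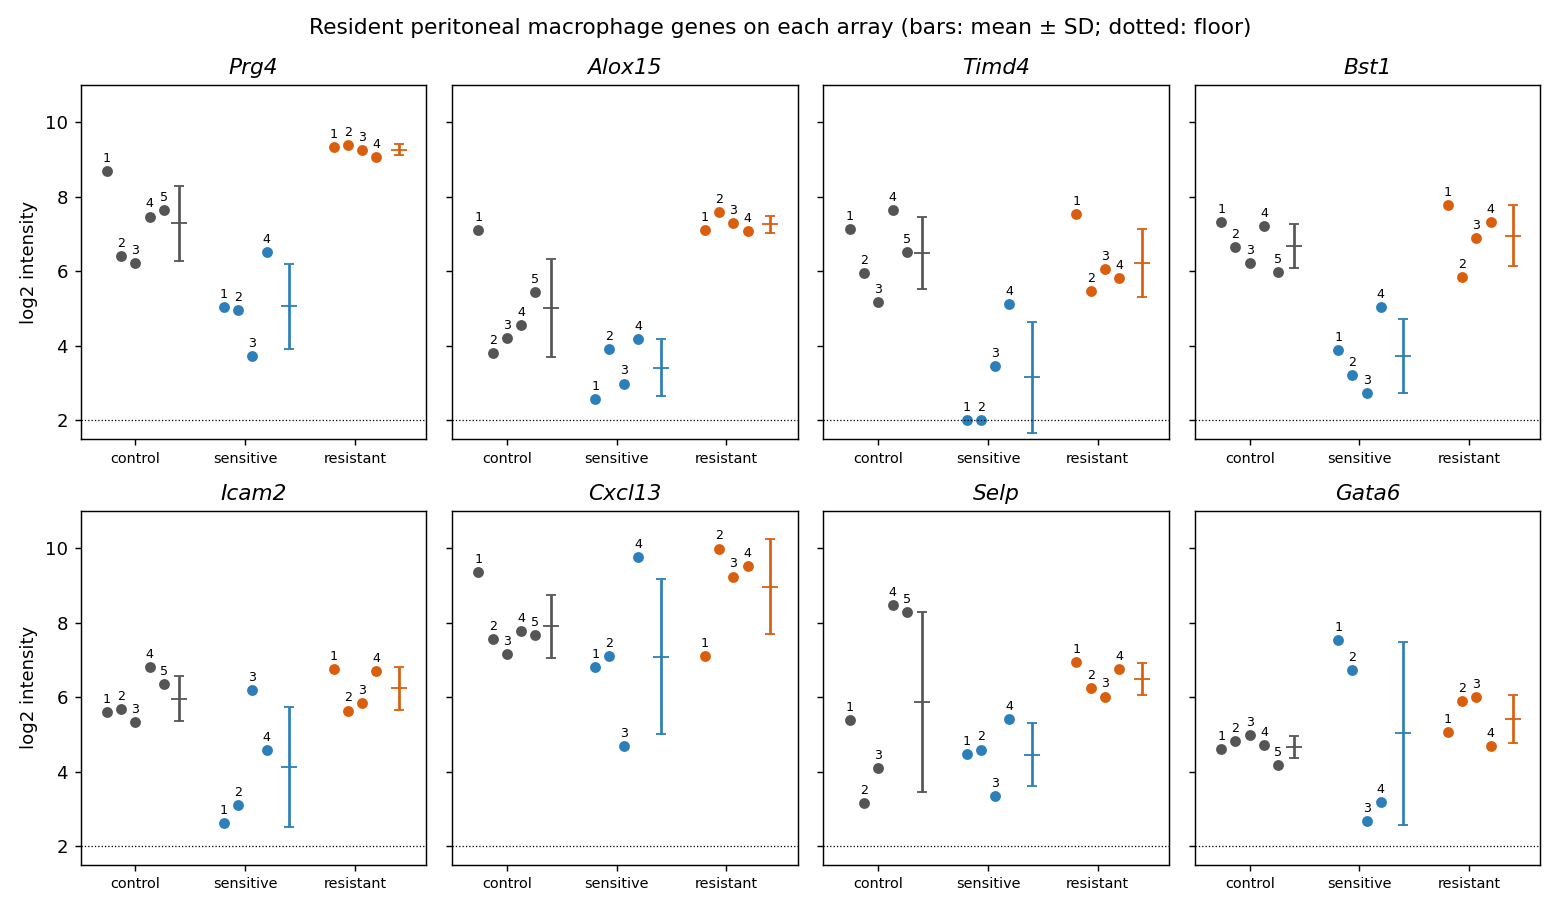
Log2 intensity of each of the 8 genes on each array, by group, with the replicate number above each point, the group mean and SD as bars and a dotted line at the floor of 2.01. The resistant values of Prg4 and Alox15 lie close together, while Gata6 is highest on sensitive arrays 1 and 2, at 7.53 and 6.73.

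Prg4, which encodes the lubricating glycoprotein lubricin, was the gene with the largest difference between resistant and sensitive arrays among the 8. Its values were 9.34, 9.39, 9.24 and 9.06 on resistant arrays and 5.05, 4.96, 3.74 and 6.52 on sensitive arrays. On the control arrays it stood at 8.70, 6.42, 6.22, 7.47 and 7.64. The resistant arrays were alike, with an SD of 0.15 against 1.00 in the control and 1.14 in the sensitive group, and they overlapped neither group. The mean of resistant arrays, 9.26 ± 0.15 (SD, n = 4), exceeded that of sensitive arrays, 5.06 ± 1.14 (SD, n = 4), by 4.19 (SE 0.58, 18.3-fold). It exceeded the control mean, 7.29 ± 1.00 (SD, n = 5), by 1.97 (SE 0.55, 3.91-fold). Prg4 was the only one of the 8 genes with every resistant value above every control value, a separation found in 1.31% of all tested genes, and with median centring in place of quantile normalization 0 of the 8 showed it.

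Alox15, the lipoxygenase that oxygenates arachidonic and linoleic acid, showed the same order of groups. It stood at 7.12, 7.58, 7.29 and 7.07 on resistant arrays and at 2.57, 3.93, 2.99 and 4.18 on sensitive arrays. The control values were 7.11, 3.81, 4.21, 4.55 and 5.44. Only control array 1 reached the range of the resistant arrays, and control array 2 lay within that of the sensitive arrays. The resistant mean of 7.27 ± 0.23 (SD, n = 4) was higher than the sensitive mean of 3.42 ± 0.76 (SD, n = 4) by 3.85 (SE 0.60, 14.4-fold) and higher than the control mean of 5.02 ± 1.31 (SD, n = 5) by 2.24 (SE 0.57, 4.74-fold).

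Timd4, the phosphatidylserine receptor by which resident macrophages bind dying cells, was lower on every sensitive array than on any other array. The gap to control array 3 was narrow. As deposited, before normalization, sensitive array 4 lay above that control array, at 5.31 against 4.88. After normalization Timd4 was at the floor on sensitive arrays 1 and 2 and stood at 3.47 and 5.12 on arrays 3 and 4. On control arrays it was 7.15, 5.95, 5.19, 7.64 and 6.53, and on resistant arrays 7.54, 5.47, 6.07 and 5.83. Resistant and control arrays covered much the same range, with a difference of -0.26 (SE 0.68). The difference of 3.07 between resistant and sensitive arrays (SE 0.71, 8.40-fold) includes the floored arrays and so understates it.

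Bst1, the ectoenzyme CD157 of the ADP-ribosyl cyclase family, behaved much like Timd4. Its values were 3.89, 3.22, 2.75 and 5.04 on sensitive arrays and 7.77, 5.85, 6.88 and 7.34 on resistant arrays. The control arrays gave 7.32, 6.66, 6.22, 7.20 and 5.97. Every sensitive value was below every other value, and the resistant mean lay 3.24 (SE 0.53, 9.42-fold) above the sensitive and 0.28 (SE 0.50) above the control mean.

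Icam2, an adhesion molecule of endothelium and resident macrophages that binds leukocyte integrins, overlapped between the groups. Sensitive arrays 1 and 2 were low at 2.63 and 3.12, array 4 stood at 4.58, and array 3 reached 6.19, a value within the resistant range of 5.64 to 6.77. On the control arrays Icam2 stood at 5.61, 5.67, 5.32, 6.80 and 6.34. Sensitive array 3 is the array with high B cell genes, and their part in its Icam2 value was not tested. The resistant mean lay 2.11 (SE 0.64, 4.30-fold) above the sensitive mean and 0.28 (SE 0.61) above the control mean.

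Selp, the selectin that platelets and endothelium store in granules and that resident peritoneal macrophages also express, had the widest control group. Control arrays 4 and 5, with the high endothelial medians, stood at 8.46 and 8.27, and control arrays 1, 2 and 3 at 5.38, 3.16 and 4.09. The resistant arrays lay close together at 6.95, 6.25, 6.02 and 6.75. The sensitive arrays were at 4.47, 4.59, 3.34 and 5.42, all below the resistant range, and the resistant mean was higher by 2.03 (SE 0.99, 4.10-fold). Against all control arrays the resistant mean differed by 0.62 (SE 0.94), without control arrays 4 and 5 by 2.24 and without control array 2 by -0.07. Among the 11 arrays with an endothelial median under 5, Selp followed that median with Pearson's r of 0.76 and Spearman's rho of 0.76 (n = 11, and r = 0.67 without the 2 farthest arrays), over points that share their libraries. The platelet marker genes had medians between 3.60 and 5.22 on all arrays. The methods of the study removed platelets on a Percoll gradient before the sort. The part of endothelial cells and of any remaining platelets in the Selp values was not tested.

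Cxcl13, the chemokine that draws B cells to the cavity through the receptor Cxcr5, overlapped between all groups. It stood at 7.10, 9.99, 9.23 and 9.53 on resistant arrays and at 6.80, 7.11, 4.69 and 9.75 on sensitive arrays. On the control arrays it was 9.36, 7.55, 7.15, 7.77 and 7.65. The single low resistant value, on array 1, lay below the control arrays. The difference of 1.88 (SE 0.89, 3.67-fold) between resistant and sensitive arrays turned to -0.78 when sensitive array 4 alone stood for its group.

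Gata6, the transcription factor that defines these macrophages, did not follow the other 7 genes. Its highest values were 7.53 and 6.73 on sensitive arrays 1 and 2, where Timd4 was at the floor, and its lowest were 2.67 and 3.20 on sensitive arrays 3 and 4. The control arrays gave 4.60, 4.83, 4.98, 4.72 and 4.17, and the resistant arrays 5.06, 5.89, 6.00 and 4.68. Group means were 4.66 ± 0.31 (SD, n = 5) in control, 5.03 ± 2.45 (SD, n = 4) in sensitive and 5.41 ± 0.64 (SD, n = 4) in resistant arrays. The resistant mean was 0.38 (SE 0.87) above the sensitive mean, -0.42 from it without sensitive array 3 and -0.24 without sensitive array 4, and 0.75 (SE 0.82) above the control mean. Sensitive arrays 1 and 2 are those of lowest trimmed mean, and normalization raised their Gata6 values. As deposited these were 6.66 and 5.96, with 6.22 on resistant array 3.

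Gata6 moved with mesothelial genes. Over the 13 arrays its value and the median of 10 mesothelial genes had Pearson's r of 0.91 and Spearman's rho of 0.82, and r was 0.82 without the 2 arrays farthest from the median of that list (n = 11). Over the 10 arrays with a core macrophage median above 7, r was 0.84 and rho 0.64, and r was 0.62 without the 2 farthest arrays. These are descriptions over arrays that share each library, and the part of mesothelial cells in the Gata6 values was not tested. The mesothelial genes Msln and Upk3b stood at 8.99 and 9.08 on sensitive array 1 and at 8.30 and 9.01 on sensitive array 2. On sensitive arrays 3 and 4 Msln was at 3.50 and 3.33 and Upk3b at 2.37 and 2.56.

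**Figure D2:**
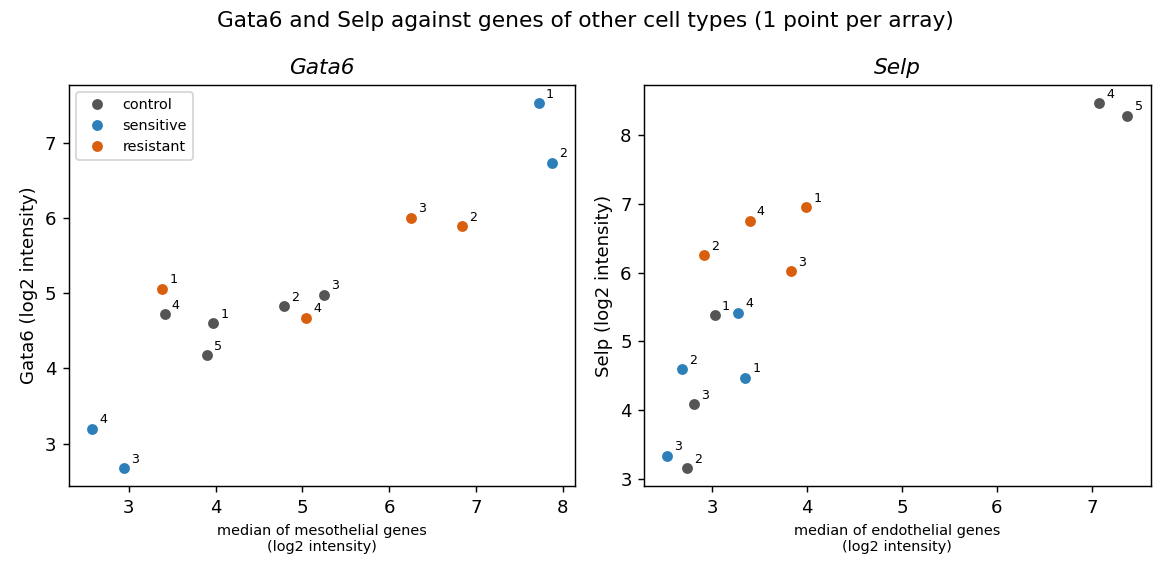
Log2 intensity of Gata6 against the median of mesothelial genes (left) and of Selp against the median of endothelial genes (right), 1 point per array, coloured by group and numbered by replicate. Sensitive arrays 1 and 2 are at the upper end of the Gata6 plot, with mesothelial medians of 7.72 and 7.88, and control arrays 4 and 5 stand alone at the upper right of the Selp plot.

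The 8 genes had 14 probe sets. The other probe sets of Bst1, Cxcl13 and Selp had differences of the same sign as the main one in each comparison, for Selp 2.90 and 2.18 between resistant and sensitive arrays. Of the other Gata6 probe sets, 1 had differences of the same sign, and the last lay between the floor and 2.37 on all arrays and so carries little information. Prg4, Alox15, Timd4 and Icam2 have 1 probe set each.

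The comparison of sensitive with control arrays asked how tumors that respond to B20 differ from those without it. Its difference of means is taken between sensitive and control arrays. The resistant arrays still enter it through the joint normalization, the floor and the choice of probe sets. For Bst1 the difference was -2.95 with all arrays, -2.93 without resistant array 1 and -2.97 without resistant array 4. The limma variance uses the resistant arrays as well, since all 3 groups were in 1 fit. The comparison also shares the sensitive arrays with the one above. With limma, 0 of 15370 genes (0%) were called at an adjusted p under 0.05, none of the 8 among them. With the methods' t-test (run without its random variance model, so without moderation of the variance), 0 were called after adjustment. The methods of the study used that model with a p under 0.05 and state no adjustment. At an unadjusted p under 0.05 there were 1828 genes with limma and 1370 with the methods' t-test, and limma gave 3565 without sensitive array 4, 3121 without sensitive array 3 and 1206 without sensitive array 2. Of the 8 genes, 5 were lower on sensitive arrays at that level (Prg4, Alox15, Timd4, Bst1 and Icam2), where 6.58% of all tested genes were, and 0 were higher, where 5.31% were. Their median difference was -1.71, with 1 of 8 positive, against 0.09 and 58.4% positive over all tested genes. With only the 2 groups compared in the fit, limma again called 0 of 15370 genes. The limma adjusted p was then 0.417 for Bst1 and 0.528 for Alox15, against 0.119 and 0.327 in the main fit.

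The 2 genes whose sensitive and control arrays did not overlap were Timd4 and Bst1, where 1.59% of all tested genes lay lower on sensitive arrays in that way. With the values as deposited, 1 of the 8 did, Bst1, and Timd4 overlapped. Timd4 differed by -3.33 (SE 0.68), with means of 3.16 ± 1.48 (SD, n = 4) and 6.49 ± 0.97 (SD, n = 5). Its limma adjusted p was 0.180 and its exact two-sided permutation p 0.00794, the smallest that 4 against 5 arrays allow. Bst1 differed by -2.95 (SE 0.50), with means of 3.72 ± 0.99 (SD, n = 4) and 6.68 ± 0.59 (SD, n = 5), a limma adjusted p of 0.119 and the same exact permutation p. Prg4 differed by -2.22 (SE 0.55), with a limma adjusted p of 0.208 and an exact permutation p of 0.0397. Alox15 and Icam2 differed by -1.60 and -1.82, with limma adjusted p of 0.327 and 0.300. Selp, Cxcl13 and Gata6 differed by -1.42, -0.81 and 0.37, and their limma adjusted p were 0.515, 0.661 and 0.843. When single arrays were left out, the difference of Selp ran from -2.09 (without control array 2) to -0.77 (without control array 4). That of Cxcl13 ran from -1.69 (without sensitive array 4) to -0.01 (without sensitive array 3). The other exact permutation p were 0.0714 for Alox15, 0.0556 for Icam2, 0.341 for Selp, 0.381 for Cxcl13 and 0.722 for Gata6. No gene of the 8 passed the test over all genes, and this changed when sensitive array 4 was left out. Without it, limma called 695 of 15324 genes (4.54%). Among them were Bst1 at -3.36 (adjusted p = 0.00115), Timd4 at -3.96 (adjusted p = 0.00222) and Prg4 at -2.70 (adjusted p = 0.00864). The core macrophage median was 9.84 on sensitive array 4 and 4.51, 5.15 and 5.07 on the sensitive arrays that remained. It ran from 7.99 to 9.48 on control arrays. The part of macrophage content in this change was not tested.

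Over the 13 arrays general macrophage genes moved with 7 of the 8 genes, with Pearson's r to their median from 0.59 (Selp) to 0.91 (Timd4). Gata6 had r of -0.35. Over the 10 arrays with a core macrophage median above 7, r for the same 7 genes ran only from 0.11 (Cxcl13) to 0.50 (Timd4). Without the 2 farthest arrays it ran from -0.20 (Alox15) to 0.25 (Selp). The core macrophage median of the arrays was higher by 3.05 on resistant than on sensitive arrays and lower by 2.59 on sensitive than on control arrays, and resistant and control arrays differed by 0.46. Subtracting each array's core macrophage median moves the group difference of every gene by the same amount, the difference of these medians. After it, the median difference of the 8 genes between resistant and sensitive arrays was -0.47, with 4 positive and 4 negative. Timd4 and Bst1 then differed by 0.02 and 0.18 between these groups, against 3.07 and 3.24 before, and by -0.59 and -0.64 without sensitive array 4. Timd4 was at the floor on sensitive arrays 1 and 2, so its subtracted values there are not exact. Prg4 and Alox15 stood at 1.14 and 0.79, and at 0.39 and -0.21 without sensitive array 4, and no gene separated the groups. The part of macrophage number in these differences was not tested.

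**Figure D3:**
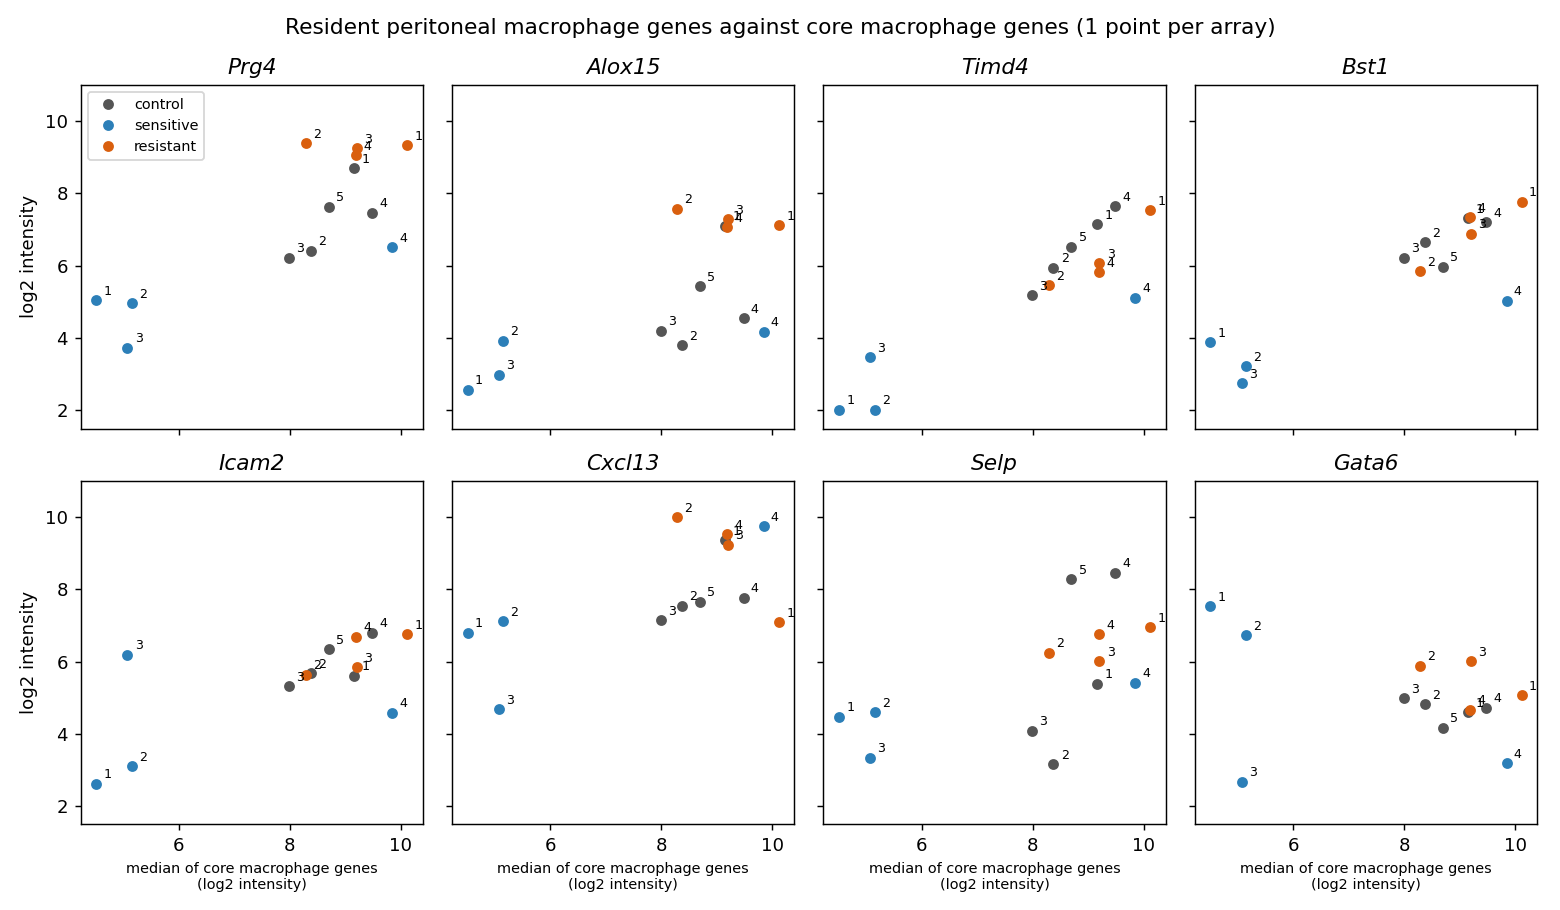
Log2 intensity of each gene against the median of core macrophage genes, 1 point per array, coloured by group and numbered by replicate. Sensitive arrays 1, 2 and 3 lie at the left, with core macrophage medians of 4.51 to 5.15, and Prg4 and Alox15 spread widely among the other 10 arrays.

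Between resistant and control arrays, whose core macrophage medians overlapped, the same subtraction left differences of 1.78 for Alox15 and 1.51 for Prg4. Cxcl13 differed by 0.61, Gata6 by 0.29, Selp by 0.16, Icam2 and Bst1 by -0.18 each and Timd4 by -0.72. All of these overlapped between the groups. For Prg4 the range was -0.78 to 1.10 on resistant and -2.01 to -0.46 on control arrays, and for Alox15 -3.00 to -0.71 and -4.93 to -2.05. Prg4 and Alox15, the secreted lubricant and the lipid oxygenase, differed most between resistant and control arrays. The subtraction lowers the difference of every gene by the same 0.46, so it cannot change this order. Over the alternatives run, the subtracted difference was 0.96 to 1.79 for Prg4 and 1.37 to 2.18 for Alox15.

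Between sensitive and control arrays the subtraction turned the median of the 8 genes to 0.88, with 6 positive. Cxcl13 differed by 1.79 (exact two-sided permutation p = 0.0317, not adjusted over the 8 genes), and the other exact permutation p ranged from 0.206 to 0.706.

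**Figure D4:**
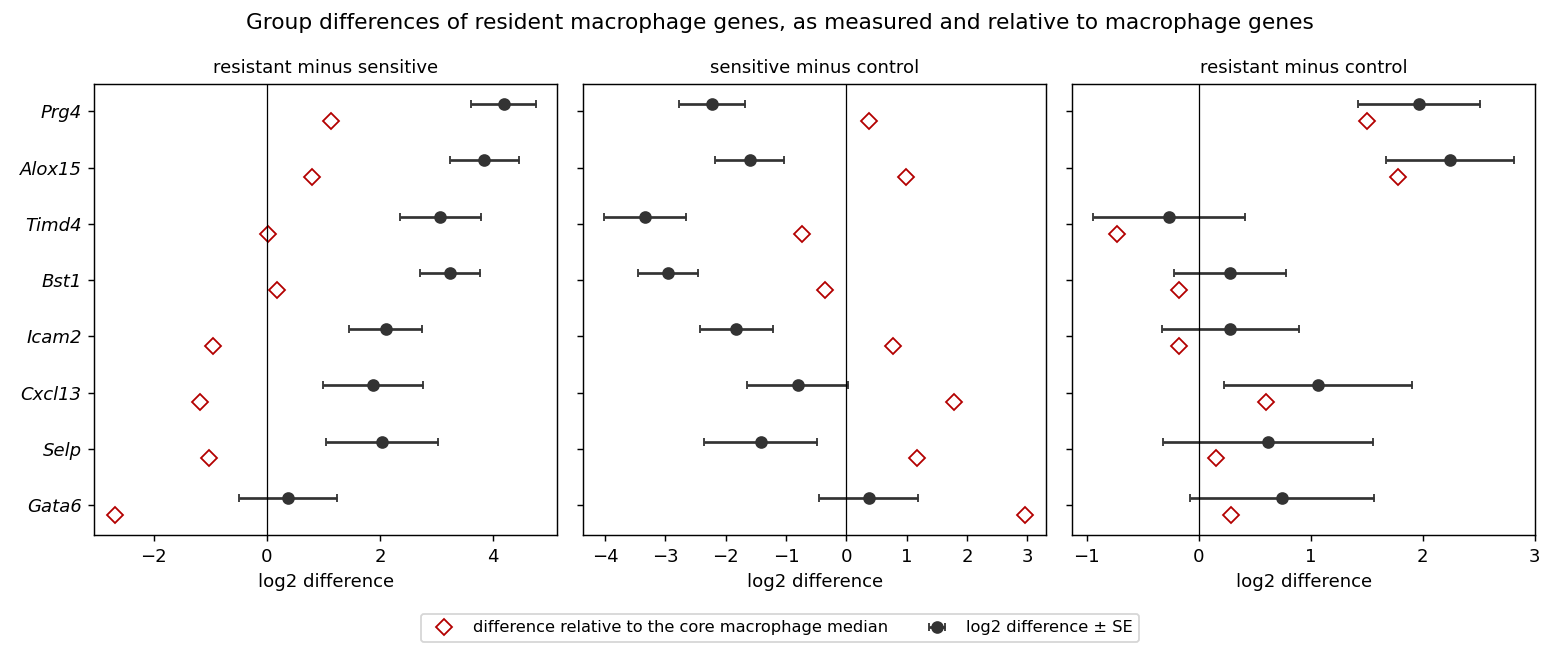
Differences between groups for each gene in 3 comparisons, as measured (filled points, log2 difference ± SE) and after subtracting each array's core macrophage median (open diamonds, no error drawn). Within a comparison the 2 kinds of point lie apart by the same amount for all 8 genes. That amount is the difference of the core macrophage medians (3.05, -2.59 and 0.46). Between resistant and control arrays only Prg4 and Alox15 exceed 1 on both.

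Sensitive array 4 is the only sensitive array with a high core macrophage median, 9.84, and it is also the array with signs of degraded RNA. There Prg4 stood at 6.52, Alox15 at 4.18, Bst1 at 5.04 and Timd4 at 5.12, each below the lowest resistant value, and Cxcl13 at 9.75, within the resistant range. Gata6, Icam2 and Selp on that array, at 3.20, 4.58 and 5.42, also lay below every resistant value. With this array alone against the resistant arrays, the differences were 3.21 for Alox15, 2.75 for Prg4 and 2.31 for Gata6. They were 1.99 for Bst1, 1.15 for Timd4 and 1.12 for Selp, and that of Icam2 was also positive. For Cxcl13 the difference was -0.78. A single array gives no spread of its own, and the part of its RNA quality was not tested.

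Among themselves the 8 genes formed 28 pairs, whose Pearson's r over the 13 arrays ran from -0.59 to 0.95 with a median of 0.54. The 4 negative pairs all held Gata6. Prg4 and Alox15 were the closest pair, with r of 0.95 and rho of 0.94 over 13 arrays, 0.98 over the 10 arrays with a core macrophage median above 7, and 0.79 after the group means were removed. Timd4 and Bst1 had r of 0.90 over 13 arrays and 0.74 over those 10. Within the control group, array 1 was highest for Prg4, Alox15, Bst1 and Cxcl13, array 4 for Timd4, Icam2 and Selp, and array 3 for Gata6. The points share library, RNA quality and normalization, and the arrays fall into clusters by macrophage level, so these values only describe the data.

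Other genes of large peritoneal macrophages were read in the same way. Of 20 genes listed, 19 were tested, and 19 of 19 were higher on resistant than on sensitive arrays, with a median of 1.14. Over all tested genes 42.1% were higher, and of the core macrophage genes 17 of 17, with a median of 2.97. The count is thus not particular to this list, and it includes Garnl3 at 0.01 and Rarb at 0.44, both near the floor on sensitive arrays. Between sensitive and control arrays 7 of the 19 were lower and 0 higher at an unadjusted p under 0.05, against 6.58% and 5.31% of all tested genes. After adjustment 0 passed, and the median was -0.67. F10, coagulation factor X, stood at 5.41, 5.63, 5.53 and 8.53 on sensitive arrays and between 8.81 and 10.05 on the others, and its sensitive minus control difference of -3.27 had a limma adjusted p of 0.119. F5, coagulation factor V, stood at 6.60, 6.60, 6.06 and 6.77 on resistant arrays, at most 4.70 on sensitive and at most 5.78 on control arrays, with differences of 3.06 and 2.18. Vsig4, a complement receptor, differed by 3.75 between resistant and sensitive and by 0.63 between resistant and control arrays, and the growth factor Tgfb2 by 0.97 and 1.14. Rarb, a retinoic acid receptor, lay between the floor and 4.36, and Garnl3 between 2.08 and 2.78.

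Lists of other macrophage markers were read beside these. The 11 tested genes of small peritoneal macrophages and monocytes had a median of 0.35 between resistant and sensitive arrays and of -0.31 between sensitive and control arrays. Their chemokine receptor Ccr2 was at 6.16 and 6.26 on sensitive arrays 1 and 2 and between 4.11 and 6.05 on the others, and the factor Irf4 was highest on sensitive array 3, at 8.58. The 8 Kupffer cell and red pulp genes had medians of -0.09 and -0.06 in these comparisons, and of them Clec4f lay between 2.85 and 4.12 and Spic between the floor and 2.64. Of the 17 tested core macrophage genes, 16 were lower on sensitive than on control arrays at an unadjusted p under 0.05 and 0 after adjustment, with a median of -2.84.

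The genes that make or sense retinoic acid, which induces Gata6, were uneven. Of 10 tested, 4 were higher on resistant than on sensitive arrays, with a median of -0.05. The retinaldehyde dehydrogenase Aldh1a2 stood at 7.91 and 8.82 on sensitive arrays 1 and 2, 4.89 and 3.56 on sensitive arrays 3 and 4, and 8.22 on resistant array 2. Aldh1a1 and Wt1, a factor of mesothelium, were also high there, with 8.69 and 9.38 for Aldh1a1 and 7.78 and 7.23 for Wt1 on sensitive arrays 1 and 2. These are the arrays with the highest Gata6. The partner receptor Rxra stood at 4.77, 4.52, 3.25 and 5.11 on sensitive arrays, all below the resistant range of 5.27 to 5.84, and between 4.82 and 5.80 on control arrays. Its sensitive minus control difference of -0.89 had a limma adjusted p of 0.377.

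The 10 tested genes outside the set whose pattern over the 13 arrays was most like the mean standardized value of the 8 were Sash1, Ch25h, Marco, Glb1, Ednrb, Cd5l, Bmp2, Plxdc2, Glb1l and Ptgr1, with Pearson's r from 0.93 to 0.88. Marco, a scavenger receptor that also stands in the core macrophage list, differed by 5.67 between resistant and sensitive and by 2.83 between resistant and control arrays. Cd5l, a secreted scavenger-receptor protein of macrophages from the list above, differed by 4.86 and 2.43. Its values were 8.77, 9.11, 8.37 and 7.90 on resistant arrays and 7.97, 3.90, 3.34, 8.71 and 6.61 on control arrays. Ch25h, the cholesterol 25-hydroxylase, differed by 2.56 and 0.48, and the lysosomal galactosidase Glb1 by 2.30 and 1.45. The mean standardized value of the 8 genes itself lay between 0.62 and 0.71 on resistant, -1.34 and -0.32 on sensitive and -0.32 and 0.53 on control arrays.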

How the data were processed

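RNA of CD31-sorted cells was hybridized to 13 Affymetrix mouse expression arrays of 1 color. The deposited values are log2 intensities of 45101 probe sets. Per the labels they were processed with MAS5, whereas the methods of the study describe bead chips and BRB-ArrayTools, so the normalization by the authors and the base of the logarithm, taken as 2, are not settled by the sources used here. The trimmed means of the arrays differed 1.73-fold, and the arrays were therefore quantile normalized, with a floor at the 30th percentile. Each gene was represented by its probe set of highest mean, and 15370 genes above the floor on at least 4 arrays were tested with limma 3.58.1 (R 4.3.3; lmFit and eBayes with trend over the 3 groups, Benjamini-Hochberg over all tested genes). Groups came from the labels. An exact two-sided permutation test over arrays was added for single genes. Of the probe sets, 34958 had 1 symbol, 932 several and 9211 none in the platform table. Named genes are the 8 genes, the 10 most like them, and fixed examples of each marker list.

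The genes and lists were chosen with earlier results of these data known. The lists of neutrophil, eosinophil and platelet genes are described in the closing part. The number of arrays limits the precision. Scripts were tested on simulated data. Alternatives covered scaling, floor, filters, probe set rule, variance model, the methods' t-test (run without its random variance model), the replicate block and leaving out arrays.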

Additional observations from a re-analysis of the deposited data

Results flagged for a closer look

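Control array 1 stood apart from the other control arrays for Cxcl13, at 9.36 against 7.15 to 7.77, and the gap to its nearest neighbour took a share of 0.719 of the range of the group, above the limit of 0.71 for 5 samples. Over the 24 groups of values examined for the 8 genes, chance gives about 1.2 such cases and 1 was found. The same array was the highest control array for Prg4, Alox15 and Bst1.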

How the results depend on the processing

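Of 923 values recomputed for 36 results under 27 alternatives, 881 stayed close to the value reported (for a tested difference, the same direction and side of the threshold, for an untested one within 1 SD, and for a count within 1.5 times). Of the 802 differences and medians among the recomputed values, 787 kept their sign and 15 did not. The alternative without the 5 arrays of lowest trimmed mean was chosen after seeing the data. The sign changed for Gata6 between sensitive and control arrays, to -0.12 with the values as deposited, -0.23 with median centring, -0.47 without sensitive array 1, -0.21 without sensitive array 2 (-0.47 to 1.16 when single arrays were left out), -1.53 without sensitive arrays 1 to 3 and -1.85 without the 5 arrays of lowest trimmed mean. Without sensitive arrays 1 to 3, Cxcl13 turned to -0.78 between resistant and sensitive and to 1.83 between sensitive and control arrays, and without control arrays 4 and 5, Selp turned to 0.24 between sensitive and control arrays. The other sign changes were in untested differences. They were Gata6 between resistant and sensitive arrays at -0.42 without sensitive array 3 and -0.24 without sensitive array 4, and Alox15 relative to the macrophage median at -0.21 without sensitive array 4. Between resistant and control arrays they were Selp at -0.07 without control array 2, and Timd4 at 0.02 without control array 4 and 0.13 without control arrays 4 and 5. The cause was not tested.

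Genes called between sensitive and control arrays numbered 5 without sensitive arrays 1 to 3, 1 without the 5 arrays of lowest trimmed mean and 0 to 695 when single arrays were left out (695 without sensitive array 4, 1 without control array 3). The median of the 8 genes between resistant and sensitive arrays was 1.86 without sensitive arrays 1 to 3 and 2.41 to 3.21 when single arrays were left out. The genes without overlap between resistant and control arrays numbered 0 with median centring, 2 with the mean of all probe sets, 2 without control arrays 4 and 5, 3 without the 5 arrays of lowest trimmed mean and 1 to 3 when single arrays were left out (2 without control array 1, 3 without resistant array 4). Between sensitive and control arrays they numbered 1 with the values as deposited, 1 with median centring and 2 to 4 when single arrays were left out (4 without sensitive array 4).

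The samples were treated as unpaired. Of 12 correlations of same-numbered arrays, 4 were over 0.1 (range -0.43 to 0.53). No values of differently numbered arrays stand beside them, so they do not settle whether the replicate numbers pair the samples. The fit with the replicate block called 0 genes between sensitive and control arrays.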

Other observations

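Granulocyte and platelet genes were read as markers of other blood cells, of which the methods removed platelets and red cells on a Percoll gradient before the sort. Of 10 tested neutrophil genes, 3 were lower on sensitive than on control arrays at an unadjusted p under 0.05 and 0 after adjustment with limma, and 4 of 10 were higher on resistant than on sensitive arrays. S100a8, a calcium-binding protein of neutrophils, stood at 2.93, 5.05, 7.17 and 7.08 on sensitive and between 7.58 and 9.12 on control arrays (limma adjusted p = 0.208), and between 6.42 and 8.10 on resistant arrays. The 8 tested platelet genes had a median of 0.18 between sensitive and control arrays. Pf4, a platelet chemokine that macrophages can also express, was at 4.54 to 8.60 on sensitive and 8.03 to 9.73 on the other arrays. The eosinophil markers Epx and Siglecf lay between the floor and 2.59.

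Cxcr5, the B cell receptor for Cxcl13, stood at 7.81 on sensitive array 3, where Cxcl13 had its lowest value, 4.69, and between the floor and 4.28 on the other arrays.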
